A study of Mus musculus with 6 samples.

Results

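The 9 genes described here, *Col8a1*, *Col8a2*, *Col9a2*, *Col12a1*, *Col13a1*, *Col14a1*, *Col16a1*, *Col22a1* and *Col25a1*, encode collagen chains that do not build the thick banded fibrils of muscle connective tissue but sit on those fibrils, form short-chain networks or lie at cell surfaces and junctions. They were taken by symbol from the 16180 genes of the deposited normalized table and joined by Ensembl identifier to the 51912 genes of the raw count table, and 9 of 9 were found in both. RNA came from the soleus, a slow calf muscle, of 8-week-old C57BL6/N mice, with 3 mice heterozygous for the *Mustn1* KO-first allele (HET) and 3 wild-type littermates (WT), and no other treatment. This allele is a gene trap in the germline, so every cell of a HET mouse carries 1 trapped copy, whose transcript runs from exon 1 into a lacZ reporter with a neomycin resistance gene, and 1 normal copy. *Mustn1* encodes a small muscle protein.

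Collagen chains wind around each other in a helix that needs glycine, the smallest amino acid, at regular positions, so their sequences are long runs of glycine followed by any 2 residues (X and Y). Fibril-associated collagens have helices broken by non-collagenous segments and attach to the surface of fibrils built from type I collagen. In muscle, types XII and XIV lie in the connective tissue around fiber bundles and in tendon, type XXII marks the myotendinous junction where fibers attach to tendon, and type XIII is a transmembrane collagen of the neuromuscular junction. Type XXV is a transmembrane collagen made by developing muscle that motor axons need to enter it, type VIII forms lattices in vessel walls and in the cornea, and type IX coats the type II fibrils of cartilage.

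In the GENCODE M21 annotation, the longest complete coding sequences of the 9 genes encode between 666 residues (*Col25a1*) and 3065 residues (*Col12a1*). The share of the protein in runs of at least 5 Gly-X-Y triplets ranged from 8.12% in *Col12a1* and 13.8% in *Col14a1* to 85.0% in *Col9a2*. The first 2748 residues of the *Col12a1* product and the first 1463 of the *Col14a1* product lay before the first such run, while each held 249 residues in 5 runs. *Col16a1* was the most interrupted, with 21 runs that held 981 residues. The longest unbroken runs had 113 triplets and were found in *Col9a2* and in *Col22a1*. Exon structure separated the short-chain pair from the rest, since the repeats of *Col8a1* and *Col8a2* lie in exon 4, the last exon of each transcript, with 4560 and 3951 bases, and 0 exons lay wholly within the repeats. In *Col22a1*, by contrast, 44 exons lay within the repeats, and 43 of these had a length that is a multiple of 9 bases, the length that codes for 1 triplet.

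A stretch of 5 triplets from the longest run is shown for 6 of the genes, in pairs, to make the repeat and its spacing visible. It is the first in the run that lies within 1 exon, which for *Col12a1* and *Col14a1* is 1 triplet after the start of the run. Each stretch is coding sequence on the strand of the gene, build GRCm38, with the glycine codon that opens each triplet in capitals. For the short-chain pair, the stretches lie at chr16:57628039-57628083 (minus strand, exon 4) and chr4:126311141-126311185 (plus strand, exon 4).
Col8a1: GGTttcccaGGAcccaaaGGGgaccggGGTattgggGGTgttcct
Col8a2: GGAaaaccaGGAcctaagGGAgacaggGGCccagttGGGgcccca
For the pair of fibril-associated collagens with long amino-terminal parts, they lie at chr9:79612925-79612969 (minus strand, exon 57) and chr15:55472927-55472971 (plus strand, exon 39), both in exons of 54 bases.
Col12a1: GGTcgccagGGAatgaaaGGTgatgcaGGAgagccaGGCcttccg
Col14a1: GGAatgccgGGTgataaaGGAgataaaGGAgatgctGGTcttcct
For 2 more fibril-associated chains, they lie at chr4:130079646-130079690 (plus strand, exon 47) and chr15:71861005-71861049 (minus strand, exon 45).
Col16a1: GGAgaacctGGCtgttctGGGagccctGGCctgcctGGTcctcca
Col22a1: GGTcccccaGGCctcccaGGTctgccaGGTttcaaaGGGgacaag
Over whole proteins, the aligned residues of the *Col8a1* and *Col8a2* products were 58.2% identical, and those after the last repeat 65.4%. The products of *Col12a1* and *Col14a1* were 48.9% identical over 1751 aligned residues, and those of the transmembrane pair *Col13a1* and *Col25a1* 51.4% over 609.

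**Figure D1:**
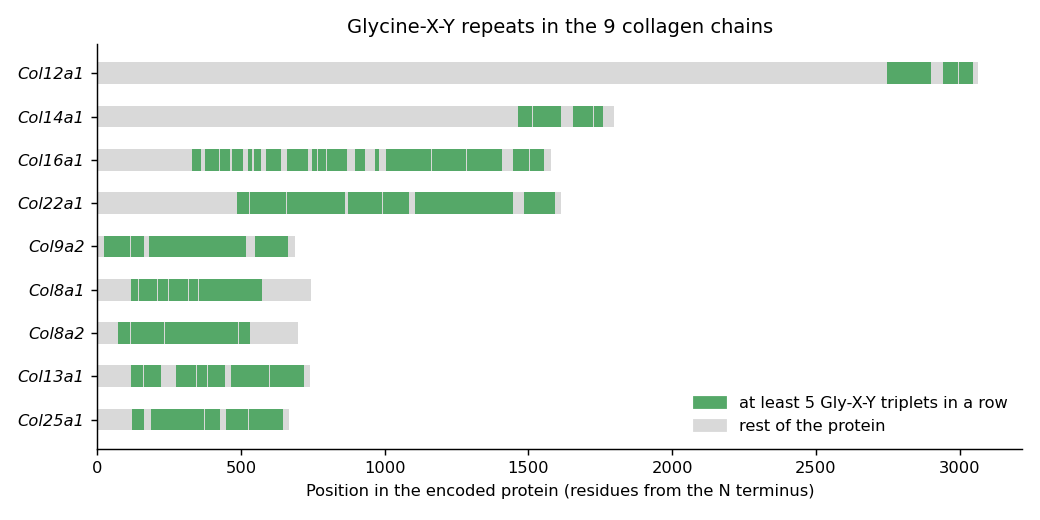
Position of the Gly-X-Y repeats (green, at least 5 triplets in a row) along the proteins encoded by the 9 genes, in residues from the amino terminus, with the rest of each protein in gray. The repeats fill 85.0% of the *Col9a2* product and sit at the carboxyl-terminal end of the 3065 residues of the *Col12a1* product.

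The 6 libraries held between 26790075 and 50368796 reads on genes. Counts were scaled by library size with edgeR's TMM factors (CPM), and 14696 genes passed its filter on low counts. *Mustn1* was at 12.6, 16.8 and 13.1 CPM in HET 1 to 3 and at 23.1, 29.0 and 30.5 CPM in WT 1 to 3, and by edgeR's robust quasi-likelihood F-test, the log2 fold change was −0.96 with a standard error (SE) of 0.15 and a Benjamini-Hochberg adjusted p of 0.0452. The labels give all mice as male, but the reads on *Xist* numbered 3858 to 9154 per library and those on 4 Y-linked genes 0 to 12, which goes against that label in both genotypes alike. In whole muscle, more cells of a type and more RNA per cell cannot be told apart.

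Of the 9 collagen chains, 7 were higher on average in HET than in WT soleus, and 0 passed an adjusted p of 0.05 in either direction with edgeR. Over all genes tested, edgeR called 0.143% higher and 0.0068% lower. An unadjusted p below 0.05 was reached by 7 of the 9, all of them higher in HET, against 5.76% of all genes tested that were higher at this level. DESeq2's Wald test called 3 of the 9 higher (*Col8a2*, *Col16a1* and *Col22a1*), against 1.41% of genes, and limma-voom called 0. In 6 of the 9 every HET library lay above every WT library, as in 7.55% of genes tested, and in 0 did every HET library lie below, as in 6.02% of genes. The median log2 fold change of the 9 was 0.77, against −0.02 over all genes tested, of which 45.6% were above 0. The members' median differed between mice of the same genotype with an SD of 0.40 on the log2 scale. WT 1 was the lowest of the WT libraries for 8 of the 9 genes, and HET 1 the lowest of the HET libraries for 7. Without WT 1 the median was 0.52, and 7 of the 9 did not overlap between genotypes. In 6 of these every HET library lay above every WT library, against 9.996% of the 14696 genes without that library, and in *Col9a2* every HET library lay below. The share of all genes with HET below was not computed without WT 1, and *Col9a2* had few reads.

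**Figure D2:**
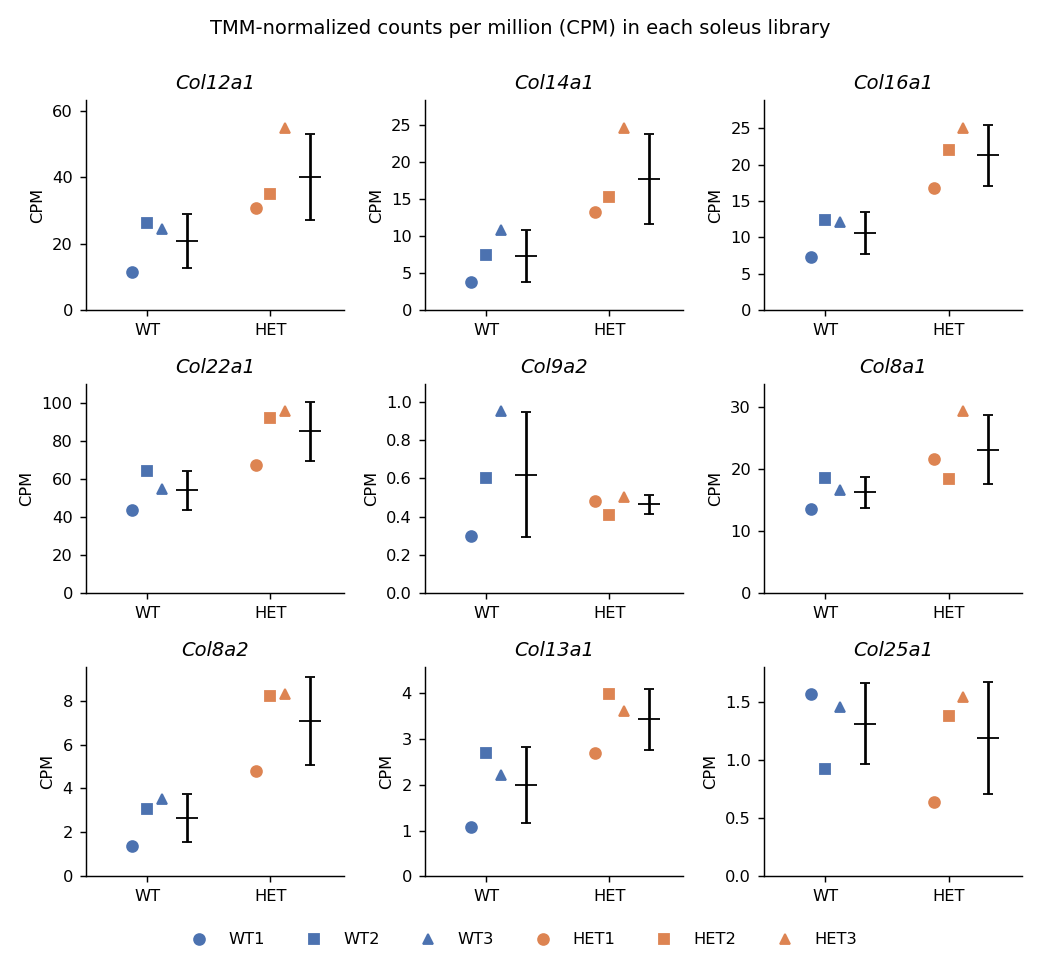
TMM-normalized CPM of the 9 genes in each library (points; circle, square and triangle for mouse 1, 2 and 3), with the mean and SD over 3 mice (black). HET libraries lie above all WT libraries for 6 genes, WT 1 is the lowest WT library for 8, and *Col9a2* and *Col25a1* overlap between genotypes at under 2 CPM.

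Among the fibril-associated collagens, *Col12a1* and *Col14a1* are close relatives that bridge fibrils in tendon and muscle connective tissue, and variants of human *COL12A1* cause a myopathy with lax joints. *Col12a1* (ENSMUSG00000032332, minus strand, chr9:79598991-79718831, 66 exon blocks) was at 30.7, 35.0 and 55.01 CPM in HET 1 to 3 and at 11.4, 26.2 and 24.5 CPM in WT 1 to 3. HET 3 was high and WT 1 low, and the genotypes did not overlap. The means were 40.2 ± 13.0 CPM for HET and 20.7 ± 8.11 CPM for WT (SD, n = 3 each), a log2 fold change of 0.96 with an SE of 0.37 (edgeR, adjusted p = 0.622). *Col14a1* (ENSMUSG00000022371, plus strand, chr15:55307750-55520803) was at 13.2, 15.2 and 24.6 CPM in HET and at 3.71, 7.38 and 10.8 CPM in WT. The order of libraries was similar to that of *Col12a1*, with HET 3 highest and WT 1 lowest, but the WT libraries were further apart, with a highest-to-lowest ratio of 2.90. Its log2 fold change was 1.27 with an SE of 0.41 (edgeR, adjusted p = 0.450) and ranged from 0.95 to 1.68 when single libraries were left out.

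*Col16a1* encodes a fibril-associated chain found in small fibrils and near microfibrils, and its product binds collagen-binding integrins. *Col16a1* (ENSMUSG00000040690, plus strand, chr4:130047840-130099283, 72 exon blocks) was at 16.8, 21.98 and 25.1 CPM in HET 1 to 3 and at 7.26, 12.4 and 12.1 CPM in WT 1 to 3. The lowest HET library (16.8) was well above the highest WT library (12.4), and the fitted HET level was 2.01 times that of WT. It had the smallest p of the 9 genes, with a log2 fold change of 1.01 and an SE of 0.22 (edgeR, adjusted p = 0.137). With DESeq2's Wald test the adjusted p was 2.43e-04.

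*Col22a1*, the chain of the myotendinous junction, was the most abundant of the 9. *Col22a1* (ENSMUSG00000079022, minus strand, chr15:71795795-72034227) was at 67.6, 92.4 and 96.1 CPM in HET 1 to 3 and at 43.6, 64.3 and 54.7 CPM in WT 1 to 3. The genotypes did not overlap, but HET 1 (67.6) and WT 2 (64.3) were near each other. The means were 85.3 ± 15.5 CPM for HET and 54.2 ± 10.4 CPM for WT (SD, n = 3 each), a log2 fold change of 0.65 with an SE of 0.17 (adjusted p = 0.232 from edgeR, 0.00580 from DESeq2). It rested on the largest number of reads, between 1303 and 4216 per library, and 0.174% of its exon bases are shared with a gene on the opposite strand, from which stranded counting separates it.

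*Col9a2* encodes a chain of type IX collagen, whose helix also needs the products of *Col9a1* and *Col9a3*. *Col9a2* (ENSMUSG00000028626, plus strand, chr4:121039385-121055322) was at 0.481, 0.410 and 0.501 CPM in HET 1 to 3 and at 0.301, 0.603 and 0.952 CPM in WT 1 to 3. The 3 HET libraries lay within the range of the WT libraries, whose highest was 3.16 times the lowest. Between 9 and 47 reads per library stood behind these values, and its log2 fold change of −0.45 with an SE of 0.43 (edgeR, adjusted p = 0.892) became 0.055 without WT 3. *Col9a1* and *Col9a3* did not pass the filter on low counts, with CPM between 0.0228 and 0.284 for *Col9a1* and between 0.167 and 0.298 for *Col9a3*.

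The short-chain pair of type VIII differed within itself. *Col8a1* (ENSMUSG00000068196, minus strand, chr16:57624258-57754737) was at 21.6, 18.4 and 29.4 CPM in HET 1 to 3 and at 13.6, 18.5 and 16.6 CPM in WT 1 to 3. HET 2 (18.4) was just below WT 2 (18.5), so the genotypes overlapped, and the log2 fold change was 0.51 with an SE of 0.18 (edgeR, adjusted p = 0.419). *Col8a2* (ENSMUSG00000056174, plus strand, chr4:126286793-126314330) was at 4.78, 8.20 and 8.29 CPM in HET and at 1.40, 3.05 and 3.50 CPM in WT, without overlap. It had the highest log2 fold change of the 9 genes, 1.40 with an SE of 0.33 (adjusted p = 0.197 from edgeR, 5.95e-04 from DESeq2), and leaving out single libraries gave between 1.10 and 1.67. Per exon length, *Col8a2* stood to *Col8a1* at 0.252, 0.506 and 0.322 in HET 1 to 3 and at 0.117, 0.187 and 0.241 in WT 1 to 3. *Col8a1* thus had the higher level in every library, and the ratio was higher in every HET library than in every WT library by a narrow margin (HET 1 against WT 3), a comparison chosen after the values were seen and not tested.

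The transmembrane pair differed in direction. *Col13a1*, whose product helps to cluster acetylcholine receptors and whose human counterpart is mutated in a congenital myasthenic syndrome, was at 2.698, 3.99 and 3.62 CPM in HET 1 to 3 and at 1.07, 2.695 and 2.23 CPM in WT 1 to 3 (ENSMUSG00000058806, minus strand, chr10:61838236-61979108). HET 1 was above WT 2 by less than 1 read's worth, from 101 and 76 reads, and WT 1 was lowest. The log2 fold change was 0.77 with an SE of 0.31 (edgeR, adjusted p = 0.549) and 0.48 without WT 1. *Col25a1* (ENSMUSG00000058897, plus strand, chr3:130131501-130599877) was at 0.641, 1.38 and 1.55 CPM in HET 1 to 3 and at 1.57, 0.922 and 1.46 CPM in WT 1 to 3. It was the only one of the 9 that was not lowest in WT 1 among WT libraries, and there WT 1 was highest. Its log2 fold change was −0.16 with an SE of 0.36 (edgeR, adjusted p = 0.966), which became 0.15 without HET 1.

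**Figure D3:**
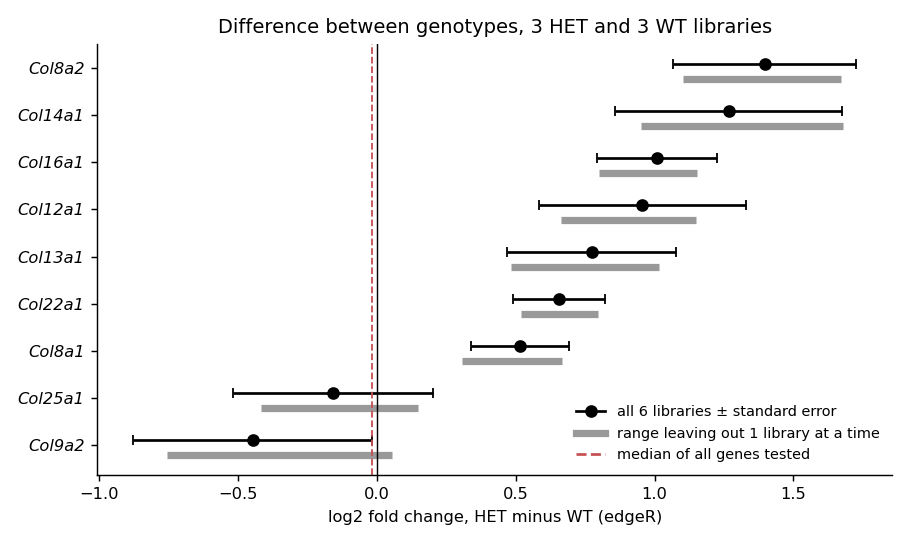
Log2 fold changes (HET minus WT) of the 9 genes with their standard errors from edgeR (black), the range when single libraries are left out (gray) and the median of all genes tested (dashed). The 7 genes from *Col8a1* (0.51) to *Col8a2* (1.40) stay above 0 without any single library, and *Col25a1* and *Col9a2* lie on both sides of 0.

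Levels of different genes were compared as CPM per kb of exon. In WT soleus the order was *Col22a1* with 5.89 ± 1.13 (SD, n = 3), *Col8a1* with 3.18 ± 0.483, *Col16a1* with 1.57 ± 0.426, *Col12a1* with 1.36 ± 0.532, *Col14a1* with 1.04 ± 0.502, *Col8a2* with 0.591 ± 0.246, *Col13a1* with 0.434 ± 0.182, *Col9a2* with 0.20 ± 0.105 and *Col25a1* with 0.102 ± 0.0268 CPM per kb. The junction chain *Col22a1* and the short-chain *Col8a1* lay above the next gene in every WT library, while from *Col16a1* down each gene's range overlapped that of the next. In HET soleus the order of the means was the same. There *Col22a1* was at 9.27 ± 1.68 (SD, n = 3) CPM per kb, *Col8a1*, *Col16a1*, *Col12a1* and *Col14a1* overlapped with their neighbors, and the ranges of *Col14a1*, *Col8a2*, *Col13a1*, *Col9a2* and *Col25a1* were separate. With the longest transcript as the length, *Col13a1* (0.632 CPM per kb in WT) came before *Col8a2* (0.612), and the other 7 kept their places.

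**Figure D4:**
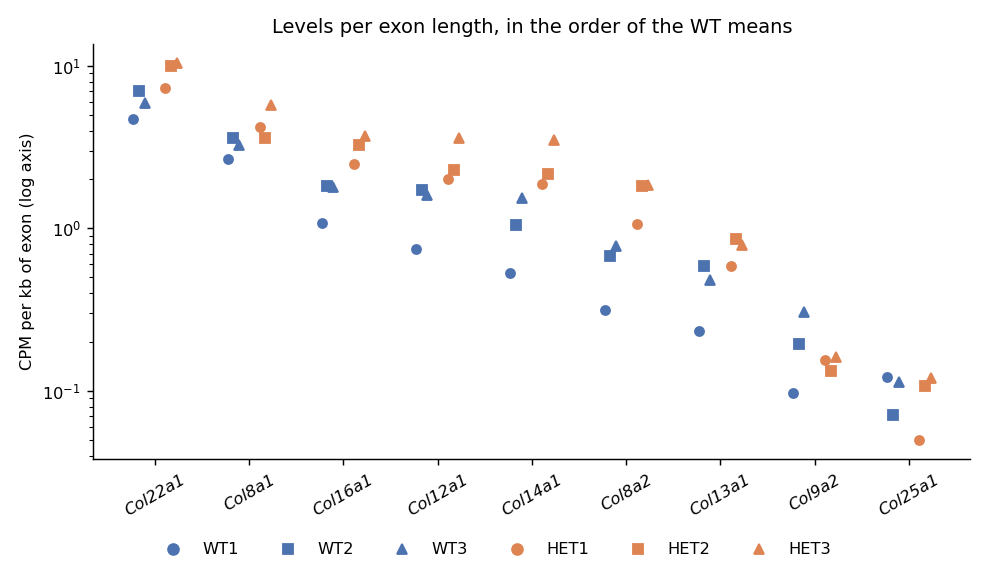
Levels of the 9 genes in CPM per kb of exon on a log axis, in the order of the WT means, with 1 point per library (circle, square and triangle for mouse 1, 2 and 3 of each genotype). *Col22a1* is highest in both genotypes, and the lowest genes, *Col9a2* and *Col25a1*, lie at or below 0.308 CPM per kb in every library.

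Likeness between genes was measured over the 6 libraries as the root mean square difference of log2 CPM centered on each gene's mean, among 12405 genes with a mean of at least 1 CPM, and the genes nearest to each member are given as a description. Within the 9, *Col12a1* and *Col16a1* were nearest to each other (0.19), and *Col8a2* and *Col25a1* furthest apart (0.9997). The nearest genes to *Col12a1* were *Col11a1*, which encodes a chain of thin fibrils, *Tnmd*, a tendon cell gene, and *Slc41a2* (0.08 to 0.14). For *Col14a1* they were *Dpp4*, a marker of a fibroblast subset, *Islr2* and *Aldh1a3*. For *Col16a1* they were *Dkk3*, *Mfap4* and the procollagen processing enhancer *Pcolce*, and for *Col22a1* the membrane-bound metalloproteinase *Mmp14*, *Nsg1* and the collagen-binding protein gene *Sparc* (0.05 to 0.08).

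For the short-chain gene *Col8a1* the nearest were the fibrillar collagen receptor gene *Ddr2*, *Plat*, which encodes a plasminogen activator, and *Meox1* (0.06 to 0.07), and for *Col8a2* they were *Thbs4*, *Col1a1* and *Ccdc3* (0.14 to 0.18). The genes nearest to *Col13a1* were *Cercam*, *Nptxr* and *Mmp23*. *Col9a2* was nearest to *Sv2b*, *Kcna5* and *Cdh19* (0.12 to 0.15), of which *Cdh19* is a Schwann cell gene, and *Col25a1* to 4921536K21Rik, *Traf3ip2* and *Pcdhga3* at larger distances (0.18 to 0.22).

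Genes that work with these chains were taken as lists and read from the same edgeR fit. Of 8 other chains of the same classes, 2 were tested and 0 called, *Col20a1* (log2 fold change −0.18) and *Col23a1* (0.17). *Col9a1*, *Col9a3*, *Col10a1*, *Col17a1* and *Col19a1* did not pass the filter, and *Col21a1* was not found by symbol among the genes of the raw count table. Of the collagens that form fibrils, 11 of 11 were tested, 11 were above 0 and 0 were called, with a median of 0.83, from 0.34 for *Col27a1* to 1.23 for *Col1a1*, the main chain of muscle and tendon fibrils. Of 8 partners on the fibril surface, such as decorin and tenascin-X, 8 were above 0 and 0 were called, with a median of 0.91, from 0.57 for *Tnxb* to 1.85 for *Comp*. Of 7 collagen receptors, 6 were above 0 and 0 were called, with a median of 0.15, from −0.11 for *Itga1* to 1.22 for *Itga2*.

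The lists of the junctions and of the receptors and proteases of transmembrane collagens had medians near that of all genes (−0.02). Of 14 genes of the neuromuscular junction, where *Col13a1* acts, 4 were above 0 and 0 were called, with a median of −0.09, from −0.37 for *Chrne* to 0.63 for *Chrng*, the adult and embryonic subunits of the acetylcholine receptor. Of 6 receptors and proteases of transmembrane collagens, 2 were above 0 and 0 were called, with a median of −0.03, from −0.13 for *Ptprd* to 0.25 for *Ptprf*. Of 9 genes of the myotendinous junction, where *Col22a1* lies, 6 were above 0 and 0 were called, with a median of 0.06, from −0.08 for *Xirp2* to 0.30 for *Tigd4*.

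The summed levels of tendon, fibroblast and macrophage markers were, as those of the collagen chains, higher in every HET library than in every WT library. Of single markers, 9 of 10 tendon, 6 of 10 fibroblast and 9 of 10 macrophage genes were so, against 7.55% of genes tested. A few genes dominate these sums. *Gsn* (635 to 743 CPM in HET, 261 to 550 in WT) was the largest part of the fibroblast sum, and *Thbs4* and *Fmod* of the tendon sum. The summed CPM of the 9 chains was between 158 and 244 in HET and between 83.9 and 136 in WT, lowest in WT 1. All 10 tendon cell markers were tested and above 0, 0 were called, and their median was 1.16 (from 0.15 for *Scx*, which encodes the tendon transcription factor, to 2.14 for *Chad*). Their summed CPM was between 408 and 732 in HET and between 132 and 323 in WT, lowest in WT 1. All 10 fibroblast and fibro-adipogenic progenitor markers were above 0 with a median of 0.69 (from 0.18 for *Ly6a* to 1.30 for *Dpp4*), *Pi16* was called (1.06, adjusted p = 0.0452 from edgeR), and their sum was between 1020 and 1104 in HET and between 505 and 835 in WT. The tendon list shares *Fmod*, *Comp* and *Thbs4* with the list of fibril-surface partners.

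All 10 macrophage markers were above 0 with a median of 1.40, from 0.33 for *Mrc1* to 2.14 for *Fcgr1*, and *Adgre1*, *C1qa*, *C1qb*, *Csf1r* and *Lyz2* were called higher by edgeR. Their sum was between 86.1 and 124 in HET and between 49.3 and 55.04 CPM in WT. All 6 adipocyte markers were above 0 and 0 were called, with a median of 1.07 (from 0.54 for *Lep* to 1.52 for *Cfd*), and their sums overlapped, with 73.2 to 229 in HET and 25.1 to 102 in WT. The overlap came from WT 3 alone (102 CPM), with 28.0 CPM in WT 1 and 25.1 CPM in WT 2. No marker in the tendon, fibroblast, macrophage and adipocyte lists failed the filter on low counts. The part of these cell types in the values of the 9 chains was not tested.

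**Figure D5:**
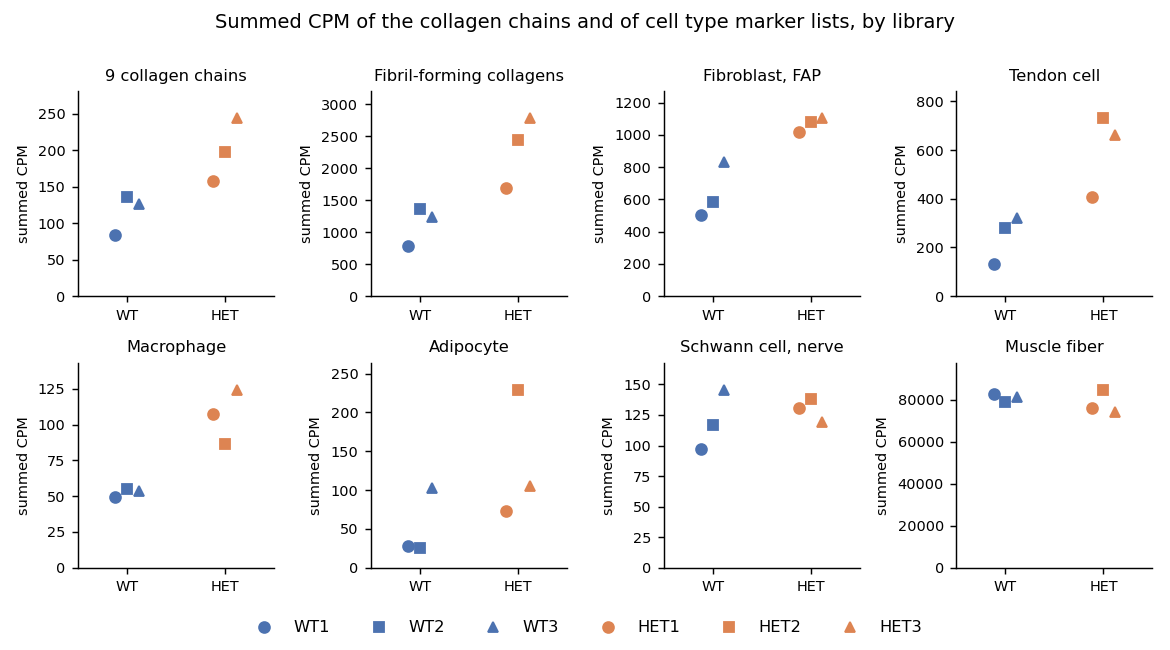
Summed CPM of the 9 chains, of the fibril-forming collagens and of 6 marker lists (FAP, fibro-adipogenic progenitors) in each library (circle, square and triangle for mouse 1, 2 and 3), with axes from 0. Sums of the collagen, fibroblast, tendon and macrophage lists are higher in every HET library than in every WT library, and the other 3 lists overlap between genotypes.

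In the lists of other cell types the medians lay near that of all genes, apart from cartilage. Muscle fiber markers were above 0 for 1 of 8 with a median of −0.06 (from −0.13 for *Myl2* to 0.01 for *Myh7*), and their sum was between 74280 and 84792 in HET and between 78886 and 82595 CPM in WT, so the labelled tissue was well marked. Schwann cell and nerve markers were above 0 for 6 of 10 with a median of 0.05, from −0.46 for *Cdh19* to 1.06 for *Ngfr*. Their sum was lowest in WT 1 (97.0 CPM) and highest in WT 3 (146), as was *Col9a2*, but the HET libraries had opposite orders. There the sum was highest in HET 2 (138 CPM) and lowest in HET 3 (119), and *Col9a2* was highest in HET 3 (0.501) and lowest in HET 2 (0.410). Endothelial markers were above 0 for 3 of 7 (median −0.06, from −0.18 for *Cdh5* to 0.16 for *Vwf*), and vascular smooth muscle markers for 4 of 7 (median 0.06, from −1.27 for *Myocd* to 0.60 for *Cnn1*). In these 4 lists 0 genes were called. Of 7 cartilage markers, 3 were tested and 0 called, *Col2a1* (1.06), *Matn3* (1.73) and *Sox9* (−0.02). *Acan*, the main cartilage proteoglycan gene, had between 0 and 21 reads per library, *Matn1* between 0 and 3, *Hapln1* between 5 and 39 and *Snorc* between 0 and 7.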

How the data were processed

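Soleus RNA of 3 HET and 3 WT mice was sequenced after poly-A selection, 1 library a mouse. Reads were aligned by the authors with STAR 2.7.3a to GRCm38.p6 and counted with featureCounts 2.0.3 in reverse-stranded mode, and the deposited raw counts are reads per gene. The authors also deposited a normalized signal, the raw count divided by a DESeq2 size factor (0.773 to 1.42), and the gene length in bases. Whole reads were recovered for 100% of its values within 0.001 and equaled the raw counts. A deposited table of the authors' own comparison (fold changes and p-values) was not used, and 0 columns of values per mouse were left without a sample.

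Raw counts were tested in R 4.3.3 with edgeR 4.0.16 (filterByExpr with a minimum count of 10, TMM, robust quasi-likelihood F-test on genotype, two-sided, Benjamini-Hochberg over 14696 genes, threshold 0.05). The biological coefficient of variation was 0.143. DESeq2 1.42.0, limma 3.58.1 (voom) and the other settings in the closing section were alternatives. The fits were also run on simulated counts with the same dispersion for every gene. That run does not measure how reliable the calls are in these data. Whether the HET and WT mice with one number shared a litter is not given. The p-values set the difference between genotypes against the spread between mice of one genotype, with 3 mice in each. Coding sequences were read from GENCODE M21 and translated, in place of the RefSeq proteins first planned, and aligned with BLOSUM62 (gap penalties 11 and 1). Log2 CPM for likeness had a prior count of 2. Every member was named. From each list, the genes called, those with the highest and lowest log2 fold change and those not tested were named, with the 3 genes nearest to each member. The members and lists were chosen with earlier results of these data known.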

Additional observations from a re-analysis of the deposited data

How the results depend on the processing

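At the settings used here 0 of the 9 chains were called higher and 0 lower, and edgeR called 21 of all genes higher and 1 lower. Without the filter on low counts 4 chains (*Col8a1*, *Col8a2*, *Col16a1* and *Col22a1*) were called, and of 29081 genes tested 386 were called higher and 18 lower. In that edgeR fit *Col12a1* and *Col14a1*, with log2 fold changes of 0.96 and 1.27, had an adjusted p of 0.755, while *Col8a1* (0.52) had 0.0058. DESeq2's Wald test called 3 chains, and of 14483 genes with an adjusted p, 204 higher and 9 lower. Limma-voom called 3 genes higher and 0 lower, dispersions without robust estimation 6 and 0, and an offset for GC content 6 higher. On the 16180 genes of the deposited normalized table, which hold the recovered whole reads, edgeR called 28 genes higher. With single libraries left out, 0 to 77 genes were higher and 0 to 6 lower, with 0 without HET 1, HET 3, WT 1 or WT 2 and 77 without WT 3, and 0 chains in each case. The cause of these differences was not tested. Of 161 recomputed values of single chains, 145 kept their direction and their side of the threshold, 14 kept their direction and passed it, 0 lost a call and 2 changed sign, *Col9a2* (−0.76 to 0.055 with single libraries left out, above 0 without WT 3) and *Col25a1* (−0.42 to 0.15, above 0 without HET 1). The median over the chains lay between 0.52 (without WT 1) and 1.02 (without WT 2). A minimum of 10 reads in every library left out *Col9a2*, whose 9 to 47 reads limit its precision.

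The replicate numbers are shared between genotypes, and deviations of same-numbered mice correlated at 0.20, −0.0058 and −0.035. HET 1 correlated best with its own number, and HET 2 and HET 3 with another number. With 3 mice per genotype, these correlations cannot decide whether the numbers are pairs. The main fit left the numbers out, and the chains called depend on this choice. With the replicate block in the fit, 4 of the 9 chains (*Col8a2*, *Col14a1*, *Col16a1* and *Col22a1*) were called. Of all 14696 genes tested, 114 were then called higher and 2 lower. With the block and the GC offset, 3 chains were called, and of the same 14696 genes 94 higher and 2 lower.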
